A study of Mus musculus with 8 samples.

Results

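Collagens are the structural proteins of the extracellular matrix, and their genes were followed here through osteocyte-enriched bone of the mouse. The members were all protein-coding genes whose mouse symbol has the form Col, a number, the letter a and a number. They came to 44 of the 43346 genes in the count table. By the protein they encode they fell into 11 fibrillar, 9 network-forming, 9 FACIT, 6 beaded-filament and 4 transmembrane collagen genes, with 5 others. A FACIT is a collagen that sits on the surface of fibrils and breaks up its own helix with non-collagenous stretches.

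The libraries were made from total RNA of bone fractions enriched for osteocytes, the cells buried in mineralized bone. All came from C57BL/6 mice aged 12 weeks, with no treatment named. There were 3 libraries from the femur, a long bone, 3 from the frontal bone and 2 from the parietal bone, both flat bones of the skull vault (calvaria). The comparison addressed is how the osteocyte transcriptome differs between these bones. Libraries are called by bone and by the number 1, 2 or 4 in their description. Whether each library is a separate animal or a pool is not labelled. The p-values therefore rest on the variation from library to library, and some of that variation may be technical.

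In bone, osteoblasts secrete type I collagen, built of Col1a1 and Col1a2 chains, as the scaffold that is then mineralized, and some of these cells become osteocytes inside it. Type V and type XI chains join the same fibrils and limit their thickness, FACIT collagens coat them, type IV collagen forms the basement membranes of vessels, and type VI collagen forms beaded filaments around cells. Cartilage has its own set, with type II as its main fibril and types IX, X and XI beside it. A chain is hydroxylated and folded in the endoplasmic reticulum, trimmed outside the cell and cross-linked by lysyl oxidases.

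Gene totals ran from 6259229 to 13461622 counts per library. Collagen genes took 5.33%, 3.98% and 4.02% of the counts in femur libraries 1, 2 and 4. For frontal libraries 1, 2 and 4 the share was 0.508%, 1.88% and 0.247%, and for parietal libraries 2 and 4 it was 0.844% and 0.885%. Every femur library therefore held more collagen RNA per count than any calvarial library, and the frontal libraries differed from each other more than those of the other bones did. Frontal library 2 was the highest of the frontal libraries and frontal library 4 the lowest. The labelled cell type also differed in its markers. The summed level of 16 osteocyte markers was 2.60 to 5.03% of counts in the femur and 0.199 to 0.290% in the calvaria. In the calvaria 11 of the 16 were lower and 3 higher, beside 31.4% and 29.6% of all genes tested. Most of the femur sum was Dmp1, a phosphoprotein of osteocytes. It was at 35228 ± 13637 CPM (counts scaled to a common library total, SD, n = 3) in the femur against 527 ± 99.6 CPM (n = 5) in the calvaria. Of 17 erythroid genes tested, all were higher in the calvaria, and they held 1.26 to 3.05% of counts in the femur and 7.40 to 11.7% in the calvaria. Granulocyte genes, 13 of 18 higher, held 1.84 to 4.82% and 7.001 to 9.30%. The part of these cell mixtures in the collagen results was not tested, and fewer cells of a type and less RNA per cell cannot be told apart in such bulk libraries.

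The start regions of 4 collagen genes are shown, because these genes span the range of the results: Col1a2, the partner chain of type I collagen; Col24a1 and Col11a2, fibrillar chains that differed by more than it did; and Col8a1, a network chain that did not pass the test. Each is the 250 bases before the RefSeq transcription start on GRCm38.p6, read 5′ to 3′ on the gene's own strand. Capitals mark CCAAT and TATAAA where the sequence as written holds them. Col1a2 is chr6:4505368-4505617 on the plus strand, Col24a1 is chr3:145292222-145292471 on the plus strand, Col11a2 is chr17:34038888-34039137 on the plus strand and Col8a1 is chr16:57754738-57754987 on the minus strand.
Col1a2: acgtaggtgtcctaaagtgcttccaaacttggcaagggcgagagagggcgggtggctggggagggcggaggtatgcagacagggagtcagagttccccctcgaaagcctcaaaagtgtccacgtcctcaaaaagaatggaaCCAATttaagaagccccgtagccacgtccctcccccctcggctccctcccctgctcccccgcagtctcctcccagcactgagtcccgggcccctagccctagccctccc
Col24a1: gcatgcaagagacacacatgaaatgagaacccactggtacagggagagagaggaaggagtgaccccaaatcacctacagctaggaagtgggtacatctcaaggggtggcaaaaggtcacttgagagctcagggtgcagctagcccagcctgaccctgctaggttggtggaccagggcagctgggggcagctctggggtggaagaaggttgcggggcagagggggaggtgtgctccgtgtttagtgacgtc
Col11a2: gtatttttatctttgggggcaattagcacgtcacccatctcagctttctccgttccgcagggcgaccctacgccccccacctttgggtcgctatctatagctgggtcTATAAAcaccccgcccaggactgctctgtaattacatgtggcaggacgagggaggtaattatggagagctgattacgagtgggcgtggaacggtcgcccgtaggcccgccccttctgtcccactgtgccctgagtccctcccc
Col8a1: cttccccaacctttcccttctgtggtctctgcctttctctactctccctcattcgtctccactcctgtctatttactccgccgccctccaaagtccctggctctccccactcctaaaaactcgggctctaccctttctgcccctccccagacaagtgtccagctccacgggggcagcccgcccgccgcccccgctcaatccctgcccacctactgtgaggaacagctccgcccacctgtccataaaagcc

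The Col1a2 region held a CCAAT that begins 109 bases before the start, and that of Col11a2 a TATAAA that begins 143 bases before it. RefSeq start regions were at hand for 35 of the 44 members, and not for Col12a1, Col14a1, Col1a1, Col22a1, Col26a1, Col2a1, Col4a3, Col5a2 and Col9a3. Letters were searched on both strands of the 250 bases. These 35 genes had 38 start regions, and each was counted, as were all 32851 start regions. CCAAT was held by 13 of the 38 (34.2%), against 33.8% of all start regions, and TATAAA by 5 of the 38, against 12.4%. GGGCGG, the core of a GC box, was held by 22 of the 38 (57.9%) and by 32.7% of all start regions. TGTGGT, the core letters of Runx sites, was held by 3 of the 38 against 14.0%, and TGANTCA, the letters of AP-1 sites, by 1 of the 38 against 6.75%. Start regions of 1 gene can overlap, so the 38 are not independent. These are matches of letters and not bound sites, and no test was made on them.

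Of the 44 collagen genes, 32 had enough counts to be tested. Calvaria, taken as the mean of frontal and parietal bone, was compared with femur by edgeR's quasi-likelihood test with Benjamini-Hochberg adjustment over 15511 genes, and a gene was called at an adjusted p under 0.05. In this comparison 27 collagen genes were lower in the calvaria, 1 was higher and 4 did not pass. Of all genes tested, 61.0% were called, 31.4% as lower and 29.6% as higher. The median log2 fold change of the tested collagen genes was -2.31, beside 0.01 for all genes tested. For 25 of the 32 no calvarial library reached into the range of the femur libraries, which held for 53.5% of all genes in either direction. Removing a trend with gene length and GC content left 22 lower and 2 higher, and turned the sign of Col5a3, Col8a1, Col8a2, Col16a1 and Col27a1.

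**Figure D1:**
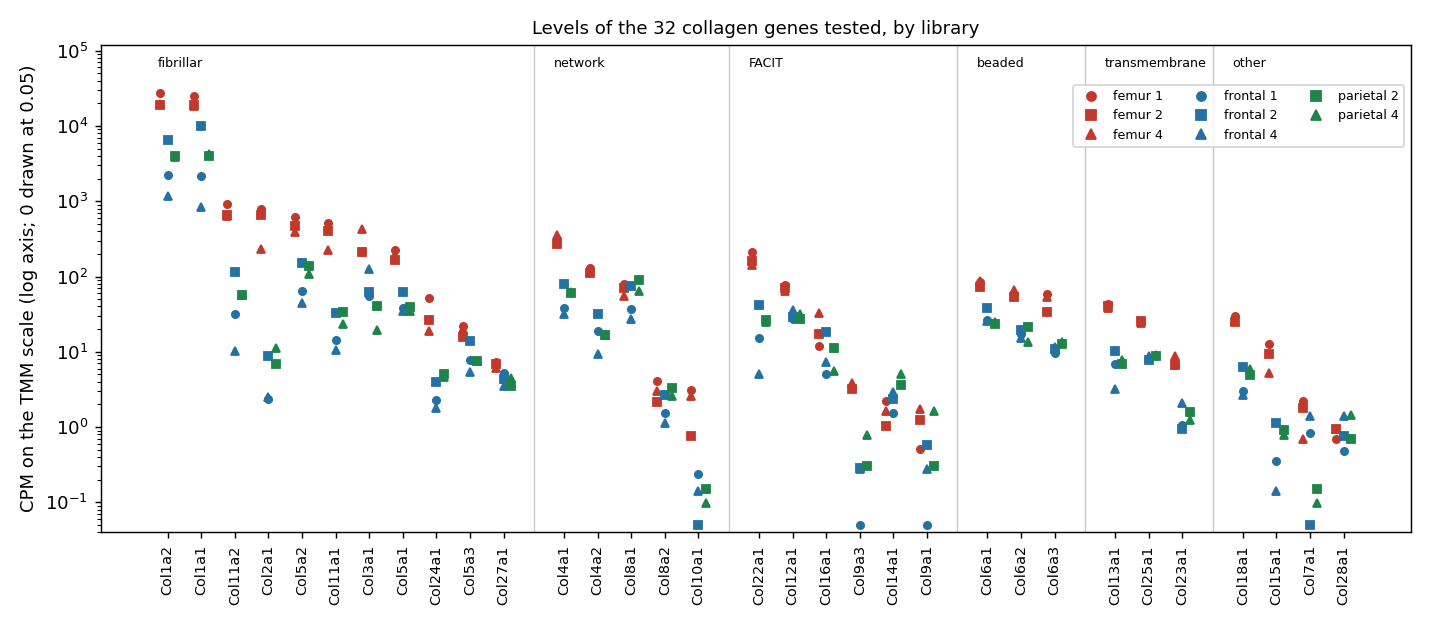
Level of each of the 32 tested collagen genes in each library, in CPM on the TMM scale, on a log axis, with genes grouped by class and ordered within a class by their femur level. Circles, squares and triangles are libraries 1, 2 and 4 of the femur (red), frontal bone (blue) and parietal bone (green), and a level of 0 is drawn at 0.05. Femur libraries lie above all calvarial ones for 25 genes, while Col7a1, Col8a1, Col8a2, Col9a1, Col14a1, Col16a1 and Col28a1 overlap between femur and calvaria.

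All 11 fibrillar genes were lower in the calvaria, beside 31.4% of all genes tested. Their median log2 fold change was -2.52, with a range from -6.40 for Col2a1 to -0.71 for Col27a1. In none of them did the libraries of the 2 sites overlap, which held for 53.5% of all genes in either direction. Removing the length and GC trend turned the sign of 2 of the 11, Col5a3 and Col27a1. Per kilobase of transcript, type I collagen led every library. In the femur the mean was 4111 CPM per kilobase for Col1a2 and 3509 for Col1a1, followed by 136 for Col11a2 and 109 for Col2a1.

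Col1a1 (chr11:94936224-94953042 on GRCm38) encodes the chain that type I collagen uses most. Its level was 25236, 18837 and 18353 CPM in femur libraries 1, 2 and 4, while frontal libraries 1, 2 and 4 had 2153, 9891 and 832 CPM. Parietal libraries 2 and 4 had 3970 and 4264 CPM. The femur libraries were the 3 highest, and frontal library 2 stood between them and the rest. Calvaria was 4.95-fold lower (log2 fold change -2.31, SE 0.73, edgeR adjusted p = 0.0296). This call ended without femur library 1 or 4, without parietal library 2 or 4, with no filter on low counts, and once the length and GC trend had been removed. Over 15 alternatives the log2 fold change ran from -3.07 to -1.37 and the adjusted p from 4.01e-06 to 0.127. Frontal bone alone against femur did not pass for Col1a1 (log2 fold change -2.28, edgeR adjusted p = 0.0578), nor did parietal bone alone (-2.34, adjusted p = 0.0862). Without frontal library 2, both passed, at -3.80 (adjusted p = 1.59e-05) and -2.33 (adjusted p = 0.000209). Without frontal library 4 they passed too, at -1.78 (adjusted p = 0.0159) and -2.37 (adjusted p = 0.00358). Both also passed with DESeq2 (adjusted p of 0.0163 and 0.0290), and frontal bone passed with limma-voom (0.0367). Over the alternatives these adjusted p ran to 0.212 and 0.293.

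Col1a2, the other type I chain, was at 27432, 19049 and 19481 CPM in femur libraries 1, 2 and 4. It was at 2249, 6578 and 1159 CPM in the frontal libraries and at 4032 and 3893 CPM in the parietal ones. The order of the libraries was close to that of Col1a1, with less distance between frontal library 2 and the parietal libraries. Calvaria was 6.05-fold lower (log2 -2.60, SE 0.47, edgeR adjusted p = 0.00121), and this call held under all 15 alternatives, with an adjusted p of at most 0.0326.

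Col11a2 and Col11a1 encode type XI chains, which start and thin the fibrils of cartilage and are also made by bone cells. Col11a2 was at 914, 665 and 630 CPM in the femur libraries, at 31.96, 116 and 10.4 CPM in the frontal ones and at 57.5 and 56.4 CPM in the parietal ones. It was 13.3-fold lower in the calvaria (log2 -3.74, SE 0.72, adjusted p = 0.0048). Col11a1 was at 507, 404 and 228 CPM in the femur, at 14.3, 32.7 and 10.6 CPM in the frontal bone and at 33.6 and 23.2 CPM in the parietal bone. For both type XI chains every femur library thus lay above every calvarial one.

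Col2a1, the main fibril chain of cartilage, differed most of all members. It was at 786, 648 and 231 CPM in femur libraries 1, 2 and 4, at 2.38, 8.77 and 2.52 CPM in the frontal libraries and at 6.94 and 11.1 CPM in the parietal libraries. It was 84.7-fold lower in the calvaria (log2 -6.40, SE 0.60, edgeR adjusted p = 8.17e-05). Femur library 4 had the lowest femur level, and it was still far above any calvarial level. Acan, the large proteoglycan of cartilage, was at 1.37, 0.471 and 3.49 CPM in the femur and at 0.286 CPM or less in the calvaria, and Matn1, Matn3, Ucma, Snorc and Epyc were too low to be tested. Beside 31.4% of all genes called as lower and 29.6% as higher, 4 of the 9 chondrocyte markers tested were lower in the calvaria. These were the cartilage regulator Sox9 (log2 -1.98), the growth plate signal Ihh (-3.61), Acan (-3.55, edgeR adjusted p = 0.00309) and the matrix protein Comp (-0.80, edgeR adjusted p = 0.00553). Sox6, another cartilage regulator, was higher (1.16). The summed share of all 14 markers overlapped between the bones, at 0.00772 to 0.00959% of counts in the femur and 0.00608 to 0.0111% in the calvaria. Without Sox6, left out after its value was seen, the other 13 did not overlap, at 0.00606 to 0.00728% in the femur and 0.00208 to 0.00347% in the calvaria. Sox6 was the marker called higher, so this separation follows from the choice to drop it and is not a separate result. The part of the chondrocyte markers in the Col2a1 difference was not tested.

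Type V chains are minor parts of type I fibrils. Col5a2 was at 609, 466 and 388 CPM in the femur, at 63.4, 150 and 44.4 CPM in the frontal bone and at 136 and 109 CPM in the parietal bone. Its log2 fold change was -2.24 (SE 0.36, adjusted p = 0.00061) and that of Col5a1 was -2.24 (SE 0.18, adjusted p = 1.29e-06). Col5a3, at 19.3 ± 3.27 CPM in the femur and 8.46 ± 3.27 CPM in the calvaria, was 2.31-fold lower, but its sign turned to 0.05 with the length and GC trend removed.

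Col3a1, the fibrillar chain of vessel walls and loose connective tissue, followed another order of libraries. It was at 214, 211 and 426 CPM in femur libraries 1, 2 and 4, at 55.0, 61.9 and 127 CPM in the same order in the frontal bone, and at 40.3 and 19.4 CPM in the parietal bone. Library 4 was the highest in both the femur and the frontal bone, where Col1a1 was lowest. Calvaria was 5.75-fold lower for Col3a1 (log2 -2.52, SE 0.38, adjusted p = 0.00056). All 3 frontal libraries were above both parietal ones, with a log2 difference of 1.44 (SE 0.51) that did not pass (adjusted p = 0.111; 0.0597 to 0.372 over 15 alternatives). Of 11 tested pericyte and smooth muscle markers 7 were lower in the calvaria and 1 was higher, beside 31.4% and 29.6% of all genes tested. The summed share of these markers was 0.0457 to 0.0667% of counts in the femur and 0.0121 to 0.0194% in the calvaria. Their part in the Col3a1 difference was not tested.

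Col24a1, a fibrillar chain of developing bone and cornea, was at 51.5, 26.8 and 18.7 CPM in the femur, at 2.27, 4.005 and 1.82 CPM in the frontal bone and at 5.03 and 4.65 CPM in the parietal bone. It was 8.70-fold lower in the calvaria (adjusted p = 7.72e-06). Col27a1, a fibrillar chain known from cartilage, had the smallest fibrillar difference. It was at 6.81 ± 0.61 CPM in the femur (n = 3) and 4.20 ± 0.73 CPM in the calvaria (n = 5), a log2 difference of -0.71 (SE 0.22, adjusted p = 0.0151) that became 0.63 (adjusted p = 0.0228) after removal of the length and GC trend. Its direction therefore depended on that choice, and the call also ended without parietal library 2 (adjusted p = 0.0571).

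**Figure D2:**
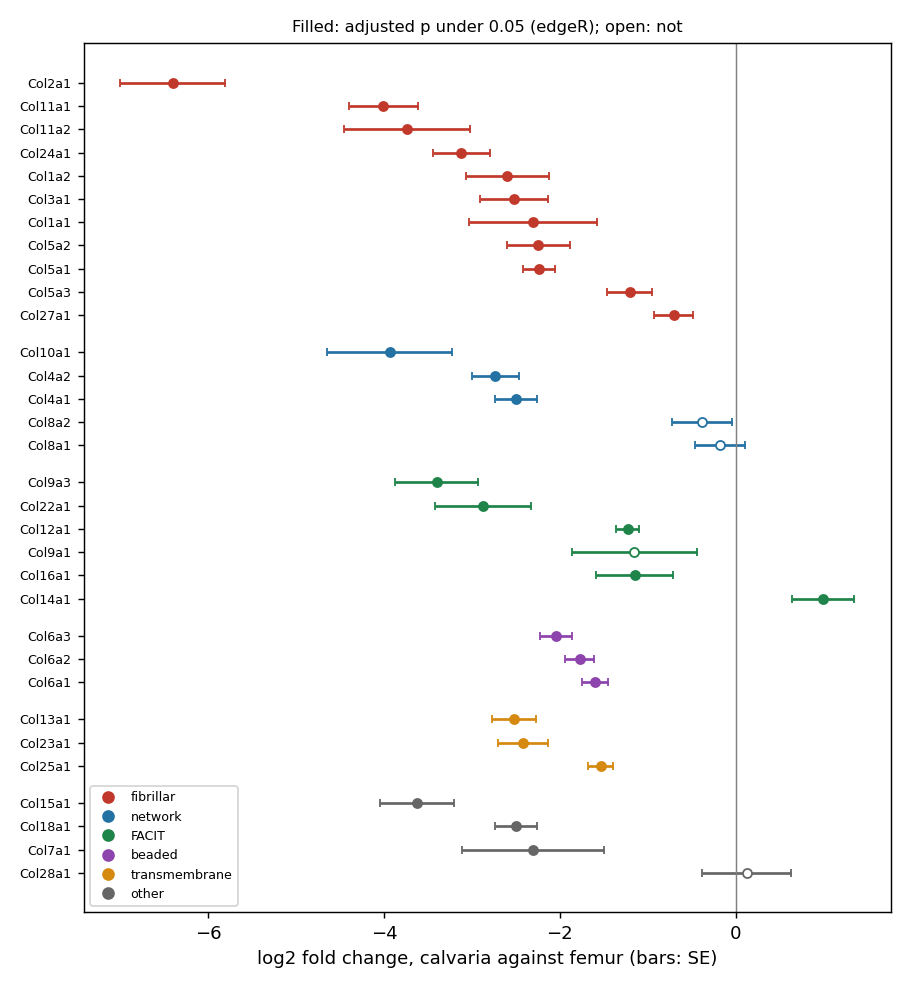
Log2 fold change of each tested collagen gene in calvaria against femur, by class, with bars of 1 SE from the edgeR fit; filled points passed at an adjusted p under 0.05 and open points did not. Col2a1 lies farthest left at -6.40, and Col14a1, at 0.99, is the only filled point above 0. Col5a3, Col8a1, Col8a2, Col16a1 and Col27a1 change sign if a trend with gene length and GC content is removed.

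Of the 9 network genes 5 were tested, 3 were lower and 2 did not pass (61.0% of all genes tested were called, 31.4% as lower). Col4a1 and Col4a2, the chains of the common basement membrane collagen, stand head to head on chromosome 8 and their annotated starts overlap by 22 bases (chr8:11312805-11312826, shown on the plus strand).
Col4a1 and Col4a2 shared start: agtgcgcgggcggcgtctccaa

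The strand setting of the counting is not given in the sources used here, so counts within these shared bases cannot be assigned to either gene. Col4a1 was at 319, 269 and 352 CPM in the femur, at 38.8, 78.7 and 31.9 CPM in the frontal bone and at 60.6 and 61.9 CPM in the parietal bone. Col4a2 was at 131, 111 and 127 CPM, at 19.0, 31.5 and 9.38 CPM and at 16.8 and 16.9 CPM in the same libraries. They were 5.66-fold and 6.66-fold lower in the calvaria, with adjusted p of 5.82e-06 and 7.95e-06. Endothelial markers moved with them, with 15 of 17 lower (31.4% of all genes tested) and a median log2 fold change of -1.01. The summed share of these markers was 0.0810 to 0.100% of counts in the femur against 0.0367 to 0.0549% in the calvaria. Their part in the type IV difference was not tested.

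Type VIII collagen was the main exception among genes with sizeable counts. Col8a1, a short chain made by vessel and corneal cells, was at 80.6, 69.8 and 55.1 CPM in the femur libraries, at 36.8, 75.9 and 27.3 CPM in the frontal ones and at 90.7 and 64.9 CPM in the parietal ones. The bones overlapped, and calvaria against femur gave -0.18 on the log2 scale (SE 0.29, adjusted p = 0.619). Without frontal library 2 it was -0.45 and passed (adjusted p = 0.0407), and removal of the length and GC trend gave 0.04. Its partner Col8a2 was at 3.10 ± 0.98 CPM in the femur and 2.25 ± 0.88 CPM in the calvaria, with a log2 fold change of -0.38 (adjusted p = 0.353). The parietal mean of Col8a1 was 15.2 CPM per kilobase, the highest there after Col1a2, Col1a1 and Col5a2.

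Col10a1, the network chain of hypertrophic cartilage, was rare everywhere, with 54 counts over all libraries. It was at 3.09, 0.754 and 2.56 CPM in the femur and at 0.2385 CPM or less in every calvarial library (log2 -3.94, SE 0.71, adjusted p = 0.000499). Its exons share 18 bases with Nt5dc1 on the opposite strand, a gene with 1889 counts, and counts there cannot be told apart. Col4a3, Col4a4, Col4a5 and Col4a6, the type IV chains of kidney and other special basement membranes, were too low to be tested, with 6 to 51 counts each over all libraries.

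Of the 9 FACIT genes 6 were tested, 4 were lower, 1 was higher and 1 did not pass. Among all genes tested 31.4% were called as lower and 29.6% as higher. Col22a1, known from tissue junctions such as that of muscle and tendon, was the most abundant of them in the femur. It was at 210, 162 and 140 CPM in the femur, at 15.1, 41.5 and 5.04 CPM in the frontal bone and at 26.6 and 25.0 CPM in the parietal bone, which made it 7.33-fold lower in the calvaria (log2 -2.87, SE 0.54, adjusted p = 0.00326). Col12a1, which binds type I fibrils, fell less and more evenly, from 70.7 ± 6.59 CPM in the femur to 30.3 ± 3.78 CPM in the calvaria (log2 -1.23, SE 0.13, adjusted p = 1.03e-05).

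Col14a1, another FACIT of type I fibrils, was the member that was higher in the calvaria. It was at 2.23, 1.04 and 1.63 CPM in the femur, at 1.55, 2.38 and 2.94 CPM in the frontal bone and at 3.66 and 5.03 CPM in the parietal bone. The parietal libraries lay above all femur libraries and the frontal ones overlapped them. The log2 fold change was 0.99 for calvaria (SE 0.35, adjusted p = 0.0282), 1.45 for parietal bone (adjusted p = 0.00885) and 0.53 for frontal bone, which did not pass (adjusted p = 0.274). The calvarial call ended without femur library 2 or 4, frontal library 4 or parietal library 4, with adjusted p from 0.00704 to 0.143 over 15 alternatives, and the parietal call ended without parietal library 4 (adjusted p = 0.0842). The gene had 197 counts over all libraries.

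Col9a3, a chain of the type IX collagen that coats cartilage fibrils, was at 3.43, 3.20 and 3.84 CPM in the femur and at 0.774 CPM or less in the calvaria (log2 -3.40, SE 0.48, adjusted p = 7.72e-05). It shares 234 exon bases with Tcfl5 on the opposite strand, which had 74 counts in all. The partner chain Col9a1 did not pass (log2 -1.15, SE 0.71, adjusted p = 0.183) and Col9a2 was too low to be tested. Col16a1, at 12.0, 17.1 and 32.5 CPM in the femur libraries and 5.13 to 18.2 CPM in the calvaria, was lower at an adjusted p of 0.0439, with overlapping libraries. The Col16a1 call ended without any of femur library 2, femur library 4, frontal library 1, frontal library 4 and parietal library 4, with no filter on low counts and with scaling by library size only. With the length and GC trend removed its log2 fold change was 0.10.

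The beaded filament genes gave the most even picture. Col6a1, Col6a2 and Col6a3, the chains of the common type VI collagen, were all lower in the calvaria, by 3.02-fold, 3.41-fold and 4.11-fold, with adjusted p from 2.53e-06 to 3.68e-06. Of all genes tested 31.4% were called as lower. Col6a1 was at 85.3, 72.1 and 87.9 CPM in the femur, at 26.2, 37.9 and 25.6 CPM in the frontal bone and at 23.7 and 24.9 CPM in the parietal bone. Col6a3 was at 49.2 ± 13.2 CPM in the femur and 11.7 ± 1.49 CPM in the calvaria, so here the femur had the wider spread. Col6a4, Col6a5 and Col6a6 were too low to be tested, with 20 to 45 counts each.

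The 3 transmembrane collagen genes tested were all lower in the calvaria, beside 31.4% of all genes tested. Col13a1, found at cell adhesion sites, was at 43.4, 40.7 and 38.2 CPM in the femur, at 6.80, 10.3 and 3.22 CPM in the frontal bone and at 6.79 and 7.74 CPM in the parietal bone (log2 -2.52, SE 0.25, adjusted p = 6.35e-06). Col25a1, known from neurons, had the smallest spread relative to its mean of all tested members, in the femur as in the calvaria. It was at 24.9 ± 0.87 CPM in the femur, 8.25 ± 0.52 CPM in the frontal bone and 8.94 ± 0.35 CPM in the parietal bone (log2 -1.53 for calvaria, SE 0.14, adjusted p = 3.46e-06). Col23a1 was at 7.44 ± 1.22 CPM in the femur and 1.40 ± 0.46 CPM in the calvaria (log2 -2.41, adjusted p = 2.11e-05). Col17a1, a part of the hemidesmosomes that fix epithelium, had 16 counts and was not tested.

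Col15a1 and Col18a1 encode basement membrane collagens that carry sugar chains, and endostatin is cut from the Col18a1 protein. Col15a1 was at 12.7, 9.23 and 5.24 CPM in the femur and at 1.14 CPM or less in the calvaria (log2 -3.63, SE 0.42, adjusted p = 1.88e-05). Col18a1 was at 26.7 ± 2.52 CPM in the femur and 4.56 ± 1.68 CPM in the calvaria (log2 -2.50, adjusted p = 4.5e-06). Both were thus lower beside the type IV genes. Col7a1, the anchoring fibril chain under epithelium, was lower at an adjusted p of 0.0265 with 58 counts in all and overlapping libraries. It was at 2.23, 1.79 and 0.698 CPM in the femur, 0.835, 0 and 1.40 CPM in the frontal bone and 0.153 and 0.0968 CPM in the parietal bone. The Col7a1 call ended under 6 of 15 alternatives, among them without femur library 1 or 2 or either parietal library, with adjusted p up to 0.432. The epithelial keratins Krt5 and Krt14 were at 0.0968 CPM or less in every library. From a list of 10 epithelial markers 5 were tested, with 2 lower in the calvaria and 0 higher (61.0% of all genes tested were called). The 10 summed to 0.0339 to 0.0531% of counts in the femur and 0.00181 to 0.00402% in the calvaria. The median log2 fold change of the 5 tested was only -0.70, so the fall of the sum does not describe the list as a whole. The part of these markers in the Col7a1 difference was not tested. Col28a1, at 0.853 ± 0.145 CPM in the femur and 0.956 ± 0.442 CPM in the calvaria, did not pass (adjusted p = 0.841), and Col26a1 was too low to be tested.

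Against femur, frontal bone alone had 24 collagen genes lower and 0 higher (55.7% of all genes called, 28.5% as lower). Parietal bone alone had 25 lower and 1 higher (55.7% of all genes called, 28.6% as lower). Frontal libraries did not overlap those of the femur for 25 of the 32 (63.0% of all genes), and parietal libraries for 28 (72.0%). Both comparisons share the femur libraries. In frontal bone the 8 that did not pass were Col1a1, Col7a1, Col8a1, Col8a2, Col9a1, Col14a1, Col16a1 and Col28a1, and in parietal bone the 6 were Col1a1, Col8a1, Col8a2, Col9a1, Col16a1 and Col28a1. Frontal against parietal bone called none of the 32 in edgeR, against 7.21% of all genes (3.30% lower and 3.91% higher in frontal bone). That share of all genes was not stable. It came to 1119 genes, and to 0 without femur library 2, frontal library 1 or either parietal library and to 102 with the length and GC trend removed. The libraries of these bones did not overlap for 6 of the 32, against 47.5% of all genes. In edgeR's frontal to parietal test, 2 collagen genes had an unadjusted p under 0.05, and DESeq2 and limma-voom also called 0. Without frontal library 2, 6 of the 32 collagen genes passed, each lower in frontal bone. In that fit 1962 of all 15266 genes tested were called, 1038 as lower and 924 as higher in frontal bone. The 6 collagen genes were Col1a1 (log2 -1.46, edgeR adjusted p = 0.0273), Col1a2 (-1.22), Col4a1 (-0.79), Col5a2 (-1.18), Col8a1 (-1.28) and Col18a1 (-0.93). With all libraries their log2 differences ran from -0.73 for Col8a1 to 0.06 for Col1a1. No other left-out library gave a call.

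**Figure D3:**
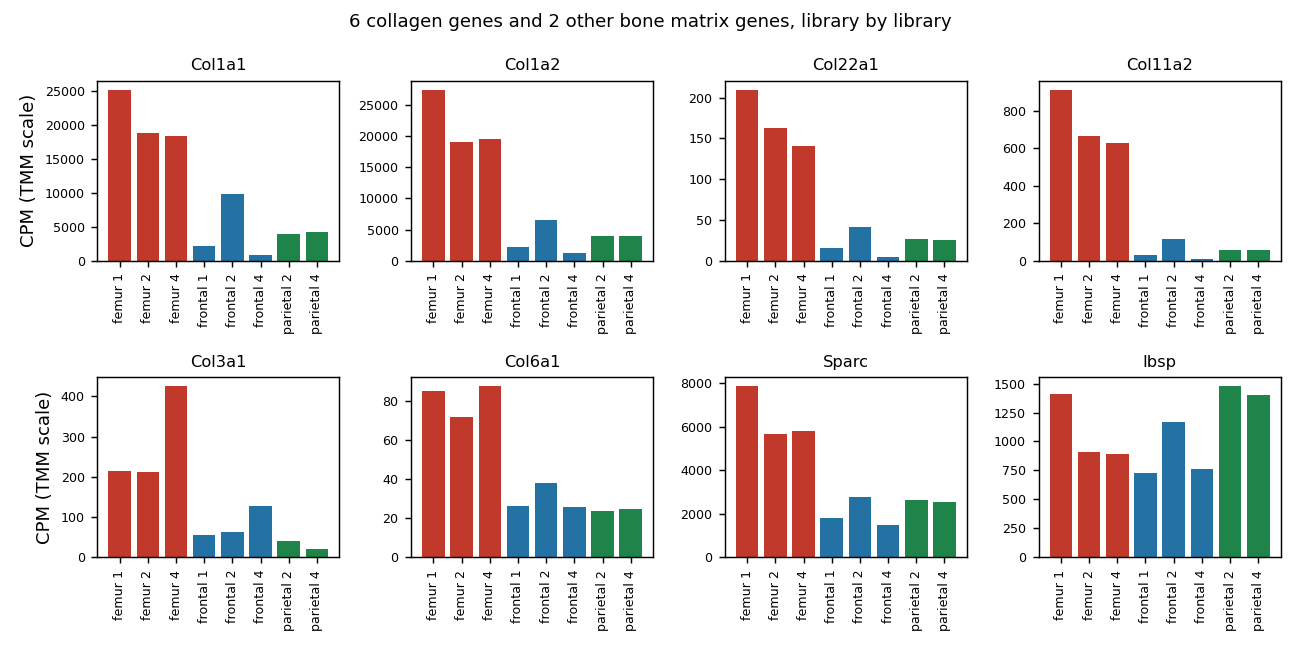
Level in each library, in CPM on the TMM scale, of 6 collagen genes and of Sparc and Ibsp, matrix protein genes of osteoblasts; each bar is 1 library of the femur (red), frontal bone (blue) or parietal bone (green). Col1a1, Col1a2, Col22a1 and Col11a2 are highest in library 2 and lowest in library 4 among the frontal libraries, and Col3a1 is highest in library 4. Sparc and Ibsp spread less there than these collagen genes, and Col6a1, spanning 1.48-fold, spread less than either. Other osteoblast markers, not drawn, spread more than Sparc and Ibsp.

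The spread among the frontal libraries had a pattern across collagen genes. The highest frontal library was a median of 2.86 times the lowest for the 32 tested collagen genes, beside 1.39 times for all genes tested. Genes with a frontal library at 0, which were Col7a1, Col9a1, Col9a3 and Col10a1 among the members, were ranked above all others in this median. For 18 of the 32 (56.2%) library 2 was above library 1 and library 1 above library 4, an order held by 17.8% of all genes tested. Col1a1 spanned 11.9-fold, Col11a2 11.2-fold and Col22a1 8.23-fold, whereas Col25a1 spanned 1.13-fold and Col6a3 1.19-fold. Of 19 tested osteoblast markers, 6 held the same order. Sparc, a collagen-binding matrix protein, was at 1786, 2778 and 1469 CPM in frontal libraries 1, 2 and 4, and Ibsp, a bone sialoprotein, at 726, 1172 and 758 CPM. Other osteoblast markers spread more, such as Smpd3 at 6.44, 17.1 and 3.78 CPM and Omd at 35.9, 99.7 and 47.5 CPM. Sparc, Ibsp, Smpd3 and Omd are not among the 4 osteoblast markers with the smallest p. Their part in the collagen spread was not tested.

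The make-up of collagen RNA within a library was compared as the share of each class in collagen counts per kilobase, which needs no scaling between libraries. Fibrillar genes held 97.7 ± 0.327% in the femur (n = 3) and 95.5 ± 2.29% in the calvaria (n = 5). No class passed an exact two-sided permutation test of the libraries, adjusted over 6 classes (adjusted p 0.268 to 0.554; the smallest p this design allows is 0.0179). The fibrillar difference of all collagens was -2.81 percentage points without frontal library 2 and -1.30 without frontal library 4 (exact permutation adjusted p = 0.171 for both). Type I collagen outweighs all other chains in these shares, at 92.3% in the femur mean and 91.2% in the calvarial mean. With Col1a1 and Col1a2 left out, the fibrillar share was 73.9, 72.2 and 65.3% in the femur libraries, 46.0, 51.6 and 52.2% in the frontal ones and 46.4 and 43.9% in the parietal ones. The bones did not overlap, and the difference was -22.4 percentage points (exact permutation adjusted p = 0.0357). The network share was higher in the calvaria by 10.2 points (23.2 ± 4.57% against 13.0 ± 2.28%, exact permutation adjusted p = 0.0429). Beaded filament genes held 13.1 ± 2.37% against 6.51 ± 1.42%, FACIT genes 8.18 ± 0.591% against 5.03 ± 0.459% and transmembrane genes 6.00 ± 1.05% against 3.78 ± 0.474%. These 3 passed as well, at exact permutation adjusted p of 0.0357, 0.0357 and 0.0429, and the other collagens did not (0.161). With 1 library left out, chosen after the data were seen, these 5 differences kept their sign. The fibrillar one was -23.3 points without frontal library 2 (exact permutation adjusted p = 0.0571) and -23.5 points without frontal library 4 (0.0429). Without frontal library 4 all but the transmembrane class still passed, while without any other library none of the 5 did (adjusted p 0.0571 to 0.114). The smallest p is then 0.0286, or 0.0476 without a femur library. The shares of a library add up to the whole, so the 5 differences are not separate results. Members of a class did not move alike. With type I kept in, Col8a1 held 0.163% of collagen counts per kilobase in the femur mean and 0.910% in the calvarial mean. Col4a1 held 0.587% and 0.679%, and Col4a2 0.235% and 0.236%. Among fibrillar genes Col2a1 held 1.29% and 0.0911% and Col11a2 1.65% and 0.644%, but Col5a2 0.889% and 1.16%.

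**Figure D4:**
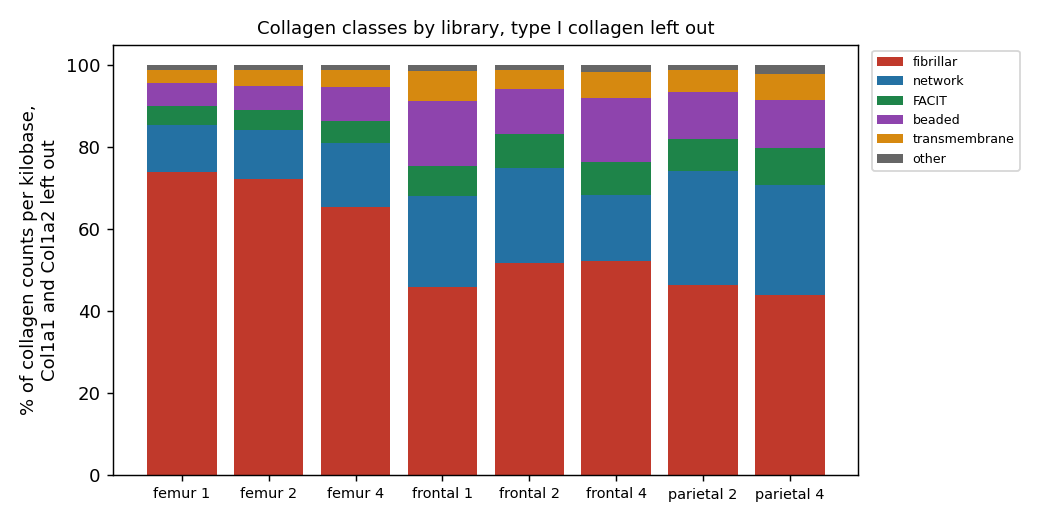
Share of each collagen class in the collagen counts per kilobase of each library, in percent, with Col1a1 and Col1a2 left out; each stacked bar is 1 library and sums to 100%. The fibrillar share is 65.3 to 73.9% in the femur libraries and 43.9 to 52.2% in the calvarial ones.

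Ratios were taken between chains that assemble into 1 protein or share a fibril. Per kilobase, Col1a1 was 0.857 ± 0.032 times Col1a2 in the femur and 0.948 ± 0.259 times in the calvaria, and frontal library 2, at 1.36, and frontal library 4, at 0.647, were the outer values. Col4a1 was 2.48 ± 0.198 times Col4a2 in the femur and 2.97 ± 0.71 times in the calvaria. Col6a1 was 1.33 ± 0.061 times Col6a2 and 1.56 ± 0.312 times. Col6a3 was 0.271 ± 0.051 times Col6a1 in the femur and 0.200 ± 0.050 times in the calvaria, and Col5a2 was 0.0179 ± 0.0018 times and 0.0244 ± 0.0048 times Col1a2. None of 7 log2 ratios passed the exact permutation test (adjusted p 0.5 to 0.875). With 7 ratios, 1 that alone separated the bones fully could reach only an adjusted p of 0.125, so this does not show that ratios were alike. The Col3a1 to Col1a1 ratio spread most, from 0.00484 in parietal library 4 to 0.163 in frontal library 4.

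Genes that make, bind and degrade collagen were counted from lists of such genes. Of 34 biosynthesis genes 33 were tested, 23 were lower in the calvaria and 1 was higher, with a median log2 fold change of -1.20. Of all genes tested 61.0% were called, 31.4% as lower and 29.6% as higher. The prolyl hydroxylase subunits P4ha2 and P4ha1, which stabilize the helix, were lower by 2.81 and 2.41 on the log2 scale, at 86.3 ± 14.7 against 12.1 ± 1.59 CPM and 324 ± 41.2 against 59.7 ± 11.7 CPM. Creb3l1, a transcription factor for type I collagen in osteoblasts, had a log2 fold change of -3.58, and Plod2, a lysyl hydroxylase for cross-links, one of -2.73. The gene that was higher was Ppib, a prolyl isomerase, at 79.5 ± 13.4 CPM in the calvaria and 42.6 ± 6.45 CPM in the femur (log2 0.93, edgeR adjusted p = 9.58e-05). It was named after its value was seen, as was Lox, the lysyl oxidase (740 ± 189 CPM in the femur and 60.9 ± 21.9 CPM in the calvaria).

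Of 11 collagen receptor genes 8 were lower and 2 higher, beside 31.4% and 29.6% of all genes tested. Itga2, the integrin chain for collagen, had a log2 fold change of -4.15, and the discoidin receptors Ddr1 and Ddr2 had -3.23 and -1.47. Lair1, an inhibitory receptor of immune cells, was higher by 1.07, and so was the platelet receptor Gp6 (1.45), named after its value was seen. Of 12 degradation genes 10 were tested, with 4 lower and 3 higher, a share of calls near that of all genes. The membrane and secreted proteinases Mmp14 and Mmp2 had log2 fold changes of -2.45 and -1.81, and the lysosomal Ctsl one of -0.61. Ctsk, the osteoclast collagenase, was higher at 1.17, and Mmp8, the neutrophil collagenase, at 1.62. Mmp8 was named with its value in view. Of 19 tested osteoblast markers 13 were lower in the calvaria and 0 higher, with a median log2 fold change of -1.06. Among all genes tested 61.0% were called, 31.4% as lower. In parietal bone alone 9 of the 19 were lower and 1 higher, with a median of -0.83 (28.6% of all genes lower). The summed share of the markers was 3.65 to 5.04% in the femur against 1.10 to 2.80% in the calvaria. Most of the femur sum was Spp1, at 31065 ± 6670 CPM against 11989 ± 5270 CPM in the calvaria. The part of these markers in the collagen difference was not tested.

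The remaining members were near the limit of detection. The 12 genes not tested had 6 to 52 counts each over the 8 libraries, with levels of 1.54 CPM or less in every library. Besides those named above they were Col19a1 and Col20a1, minor FACIT collagens. Differences between bones were not detectable for these genes at this depth.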

How the data were processed

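The authors deposited whole-number counts per gene for all 8 libraries. Per the labels' protocols, Nextera XT libraries of total RNA were read as paired ends. The submitters' processing notes name GRCm38.p3 and mm10 as builds and, as tools, the aligner STAR 2.5.2a with edgeR, limma and DESeq2. How reads were counted, with which annotation and strand setting, is not given in the sources used here. A filtered copy and a scaled table were not used. The 92 spike-in rows were left out, and 42462 of 43346 genes had a symbol.

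The test was run in edgeR 4.0.16 under R 4.3.3 (filterByExpr, TMM scaling, robust quasi-likelihood fit with the 3 bones as groups over all 8 libraries, 5 residual degrees of freedom, biological coefficient of variation 18.6%). CPM values are edgeR's. Levels per kilobase used the longest principal transcript of GENCODE M21 on GRCm38. Class shares and chain ratios were compared by exact permutation of libraries, adjusted over 6 classes and 7 ratios. Alternatives were other scalings, no filter, DESeq2 1.42.0, limma-voom 3.58.1, a replicate block, removal of a length and GC trend with mgcv 1.9.3, and leaving out each library. The fit was also run on simulated counts in which far fewer genes changed than were called here. That run therefore does not check the fit under so many changes. Libraries of the same bone differed by more than sampling noise in every pair, with a chi-square of at least 7.75 per degree of freedom. Any collagen gene could be named, and from each other list the 4 members with the smallest p and markers near 0. Comp, Sparc, Ibsp, Smpd3, Omd and Spp1 were named outside this rule, as were the genes said to be named with their value seen. The members and lists were chosen with earlier results of these data known.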

Additional observations from a re-analysis of the deposited data

Results flagged for a closer look

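Among the 5 calvarial libraries, 3 of 45 collagen values examined had a library whose gap to its neighbour exceeded 0.71 of the group's range, and chance flags about 1 in 20. Frontal library 2 was far above the other calvarial libraries for Col5a1, at 62.0 CPM, and for Col6a1, at 37.9 CPM. Frontal library 4 had a FACIT share of 1.39% of collagen counts per kilobase, far above the others. What set these values apart was not tested.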

How the results depend on the processing

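Counts of collagen genes called in each comparison with femur stayed within 1.5 times their value under every alternative run. Leaving out each library in turn gave 24 to 29 calls for calvaria, 22 to 27 for frontal and 21 to 28 for parietal bone against femur, and 0 to 6 for frontal against parietal bone, the 6 without frontal library 2. Whether equal numbers mark the same animal is not labelled. Correlations of same-numbered deviations ran from -0.10 to 0.15. These deviations were taken from bone means of 2 or 3 libraries, so the correlations cannot settle whether the libraries are paired. A fit with the number as a block called 27, 26, 25 and 0 genes in these 4 comparisons. Over all genes, 1119 were called between frontal and parietal bone, but 0 with the block or without femur library 2, frontal library 1 or either parietal library, 102 with the length and GC trend removed, 518 without frontal library 4, 1904 with no filter, 1962 without frontal library 2, 1718 without femur library 1 and 2225 with DESeq2.

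With the length and GC trend removed, the log2 fold change for calvaria against femur turned to 0.049 for Col5a3, 0.044 for Col8a1, 0.44 for Col8a2, 0.097 for Col16a1 and 0.63 for Col27a1. It turned to 0.23 for Col7a1 and 0.079 for Col16a1 in frontal bone, and to 0.11 for Col16a1 in parietal bone. For Col28a1 it turned to -0.016 with limma-voom and -0.0044 with the replicate block, and ran from -0.19 to 0.35 with libraries left out. The frontal to parietal difference of Col1a1 turned from 0.06 to -0.67 with limma-voom, -0.41 with the block, -0.42 with the trend removed and ran from -1.46 to 0.59 with libraries left out. That of Col1a2 ran from -1.22 to 0.20. The log2 ratio of Col1a1 to Col1a2 differed by 0.11 between the bones and ran from -0.034 to 0.23 with libraries left out, and that of Col3a1 to Col1a1 by 0.32, with a range of -0.49 to 0.78. With Col1a1 and Col1a2 left out of the total, the following class share differences passed the threshold. They were -22.4 points for fibrillar, 10.2 for network, 3.15 for FACIT, 6.58 for beaded and 2.22 for transmembrane genes. With 1 library left out as well, chosen after the data were seen, they ran from -25.0 to -20.7 for fibrillar, 9.03 to 11.9 for network, 2.92 to 3.40 for FACIT, 5.90 to 7.40 for beaded and 1.91 to 2.56 for transmembrane genes. With type I kept in, the left-out ranges were -2.81 to -1.30, 0.660 to 1.10, 0.157 to 0.408, 0.358 to 0.905 and 0.113 to 0.341 points. Causes of these shifts were not tested. Scaling by library size only put the median log2 fold change of all genes at 0.11 for calvaria and 0.16 for frontal bone, from 0.01 and 0.02, and turned no collagen value reported. Members under 100 counts in all, such as Col7a1, Col9a1, Col10a1 and Col28a1, rest on few reads. Col1a1 in frontal bone against femur also passed with the block (adjusted p = 0.0350).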
